A study of Mus musculus with 8 samples.

Results

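Transcripts of 10 genes used as markers of pluripotency, Pou5f1, Nanog, Sox2, Zfp42, Esrrb, Klf4, Lin28a, Tdgf1, Dppa5a and Utf1, were followed in RNA from mouse motor neuron cultures. They were taken by gene symbol, and all 10 had a row among the 55471 gene identifiers of the count and FPKM tables. The cells were HBG3 mouse embryonic stem cells with the HB9::GFP reporter, in which the Hb9 promoter drives green fluorescent protein in motor neurons. Before differentiation they were kept with LIF and inhibitors of the FGF receptor and of Gsk-3, on gelatin or on mouse embryonic fibroblasts. They were then differentiated to spinal motor neurons, dissociated, plated and cultured for 3 more days with BDNF, CNTF and GDNF, and no sort for GFP is named in the labels.

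Each of the 4 groups had 2 libraries. Input was RNA from the cultures without capture. LacZ was a pull-down with control probes against the bacterial LacZ mRNA, and ODD and EVEN were pull-downs with 2 sets of biotinylated 20 nt antisense probes against the long noncoding RNA Lhx1os. All groups came from the same kind of culture and differed only in the capture. Replicates 1 and 2 of each group belong to the first and second of 2 independent experiments. Undifferentiated stem cells were not among the 8 libraries, so no level below is set against theirs. Total counts ran from 7632775 to 24628435 per library, and no molecular identifiers were used, so that intervals and detection limits cover counting error alone.

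Pluripotency in the mouse rests on a network of transcription factors around Pou5f1 (OCT4), Sox2 and Nanog, which bind each other's genes and those of Esrrb, Klf4 and Zfp42 (REX1). Differentiation shuts most of this network down. Some of its members also work elsewhere: Sox2 maintains neural progenitors and is expressed throughout the early neural tube, Klf4 and Esrrb act in several differentiated tissues, and Lin28a, which blocks processing of the let-7 microRNA, is still made in early neural progenitors.

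The 10 genes fell into 3 classes by level. Sox2 was abundant, Klf4, Esrrb and Lin28a were low but counted in all 8 libraries, and the remaining 6 were at or near 0. FPKM, the count scaled by gene length and by the library's total, allows genes to be compared with each other. Mean FPKM in Input was 122 ± 37.8 (SD, n = 2) for Sox2, 1.51 ± 0.914 for Klf4, 1.41 ± 0.897 for Esrrb and 0.464 ± 0.326 for Lin28a. The median gene tested had 5.22 FPKM in Input, so that Sox2 lay above 98.9% of genes tested, Klf4 above 29.3%, Esrrb above 28.6% and Lin28a above 15.6%. Tdgf1 followed at 0.228 ± 0.256, Nanog at 0.112 ± 0.0973 and Zfp42 at 0.0497 ± 0.0397. In this order the 2 Input values of Klf4 and Esrrb, Lin28a and Tdgf1, Tdgf1 and Nanog, and Nanog and Zfp42 overlapped, and Pou5f1, Dppa5a and Utf1 were all at 0 in Input. Within a library the order was fixed for Lin28a and Tdgf1, with Lin28a higher in 8 of 8. Klf4 was above Esrrb in 5 of 8 libraries, and Tdgf1 above Nanog in 4 of 8.

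**Figure D1:**
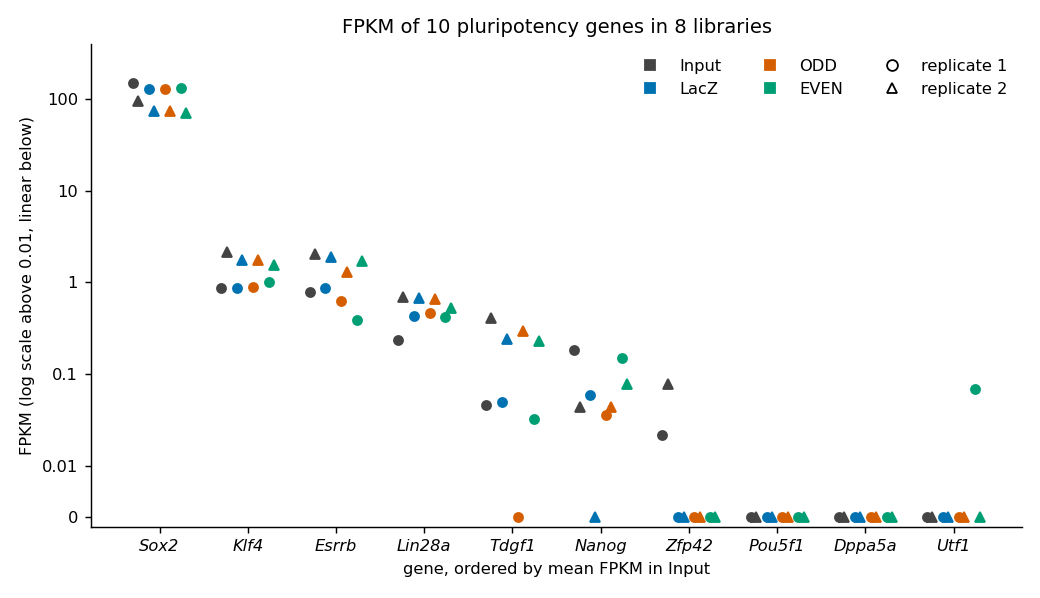
FPKM (vertical axis, logarithmic above 0.01 and linear below) of the 10 genes in each of the 8 libraries, with colour for the group and shape for the replicate. Sox2 sits between 69.9 and 149 FPKM in every library, while Pou5f1 and Dppa5a are at 0 in all of them.

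Pou5f1, the POU-domain factor without which pluripotency is lost, had 0 counts in each of the 8 libraries. In the Input libraries together this allows at most 0.0296 FPKM, and in all libraries together at most 0.0121 FPKM. Pou5f1 (ENSMUSG00000024406) is a coding gene on the plus strand of chromosome 17 from 35506018 to 35510772 of GRCm38. Of its exon bases, 14.1% overlap the antisense gene Gm19553, which also had 0 counts. Of the 50-base stretches of its longest transcript, 15.9% occur in annotated transcripts of other genes, so most of the transcript could be counted without such a conflict. Copies outside the annotation were not examined.

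Dppa5a, which encodes a small KH-domain RNA-binding protein of stem cells and early germ cells, also had 0 counts in all libraries. For Dppa5a (ENSMUSG00000060461, chromosome 9 from 78367052 to 78368177, minus strand) the limit is wider, at most 0.107 FPKM in the Input libraries together. The gene is only 619 bases long, and 38.6% of its 50-base stretches occur in other annotated genes, the largest share among the 10. Utf1, a chromatin-bound factor of undifferentiated cells (ENSMUSG00000047751, chromosome 7 from 139943789 to 139945112, plus strand), had 1 count, in EVEN replicate 1, and 0 in the other libraries. Zfp42, a zinc-finger gene used to mark the naive state (ENSMUSG00000051176, chromosome 8 from 43295063 to 43306980, minus strand), was found by 1 read in Input replicate 1, by 3 in Input replicate 2 and by 0 in all 6 pull-down libraries.

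Nanog, the homeodomain factor of the naive state (ENSMUSG00000012396, chromosome 6 from 122707489 to 122714633, plus strand), was found by few reads: Input replicates 1 and 2 held 10 and 2, those of LacZ 1 and 0, ODD 1 and 1, EVEN 4 and 2. These were scattered over all groups, and 4.76% of the 50-base stretches of the transcript occur in 55 other genes. Whether the 21 reads lie in these stretches cannot be seen from counts. The pseudogenes Nanog-ps1 and Nanog-ps2 had 0 counts. Tdgf1 encodes Cripto, the co-receptor of Nodal (ENSMUSG00000032494, chromosome 9 from 110939603 to 110946158, minus strand). Input replicates held 3 and 22 reads of it, LacZ 1 and 7, ODD 0 and 8, EVEN 1 and 7, so in each group the second replicate was higher. Its pseudogenes Tdgf1-ps1 and Tdgf1-ps2 had 0 and 3 counts in all libraries together.

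Sox2 (ENSMUSG00000074637), a gene of a single exon on the plus strand of chromosome 3 from 34650405 to 34652461, was the one abundant member. Input replicates held 7528 and 4014 reads of it, LacZ 2023 and 1696, ODD 3331 and 1586, EVEN 3219 and 1661. Its exon lies inside the long noncoding gene Sox2ot without sharing an exon with it, and none of its 50-base stretches occurs in another annotated gene. Esrrb, an orphan nuclear receptor (ENSMUSG00000021255, chromosome 12 from 86361117 to 86521628, plus strand), was read 116 and 254 times in Input, LacZ held 40 and 129, ODD 48 and 80, EVEN 28 and 119. For Klf4, a zinc-finger factor (ENSMUSG00000003032, chromosome 4 from 55527143 to 55532466, minus strand), the counts were 65 and 135, 20 and 59, 34 and 55, and 37 and 54 in the same order of groups. Relative to the totals Sox2 was higher in replicate 1 of every group, and Esrrb and Klf4 were higher in replicate 2. Lin28a (ENSMUSG00000050966, chromosome 4 from 134003330 to 134018841, minus strand) had 23 and 57, 13 and 30, 23 and 27, and 20 and 24 counts. Of its exon bases 5.86% overlap Gm13061 on the opposite strand, which had 2 counts in all.

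Of the genes labelled as residual pluripotency genes, only some were thus counted beyond a few reads. Whether their reads came from remaining stem cells was not tested. Among 110219099 counts, Pou5f1 and Dppa5a had 0, Utf1 1, Zfp42 4, Nanog 21, Tdgf1 49, Lin28a 217, Klf4 459 and Esrrb 814, against 25058 for Sox2. By the median, markers of neural progenitors and motor neurons were far higher than the 10 genes, whose median in Input was 0.17 FPKM. Sox2, at 122 FPKM, was an exception among the 10. Single markers were low too, such as Pax6 at 0.834 FPKM and Isl2 at 0.989. The 12 neural progenitor markers had a median of 46.9 FPKM in Input and the 13 motor neuron markers, Mnx1 (Hb9), Isl1 and Chat among them, a median of 27.7 FPKM. The labelled cell type was therefore present beside progenitors, and fewer cells of a type and less RNA per cell cannot be told apart in such bulk samples. Proliferation genes were also expressed, with a median of 25.1 FPKM for 8 genes.

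Other genes of the naive network, from a list of 21, were low as well. Their median was 0.0189 FPKM in Input, 4 of the 21 had no count in any library and 7 had enough counts to be tested. Among them were genes with wide use outside stem cells: Tet2, which oxidises methylcytosine, at 10.7 FPKM in Input, Mybl2, a cell-cycle factor, at 5.17, and Klf5 at 4.45. Prdm14, Fgf4, Dppa3 and Tcl1 were the ones without a count. Of 10 genes of the primed state and the exit from pluripotency, Pou3f1 was the highest at 6.17 FPKM, followed by Lin28b at 1.79 and Zic2 at 1.33. The stem cell microRNA clusters were represented by 10 precursor loci of the Mir290 to Mir295 and Mir302 to Mir367 families, all with 0 counts (Mir292a was not matched and not analysed). These precursors are short and the libraries were not made for small RNA, so mature microRNAs were not measured.

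The promoters of these genes are where the network is known to act on itself, and RefSeq windows from 250 bases before to 50 after the start site on GRCm38.p6 were found for 9 of the 10. Pou5f1, Nanog and Esrrb had 2 windows each, and only that nearest the annotated start of the gene was searched. The start site of the Sox2 window lies 410 bases from the annotated start of Sox2. Both strands were searched for the octamer ATGCAAAT bound by POU factors, the SOX core ACAAAG, the ESRR half-site AAGGTCA and the CACCC box CCACCC of KLF factors. The octamer was found in 1 of the 9, that of Zfp42, against 1.74% of all 32851 promoter windows. The SOX core was found in 1 of 9, that of Sox2 (18.7% of all windows), the ESRR half-site in 0 of 9 (4.72%) and the CACCC box in 5 of 9 (31.5%). Shown are the 250 bases before the start of Sox2, Esrrb and Klf4, because these 3 genes differed between the experiments, as described further on. Capitals mark the matches. Sox2 holds the SOX core alone, Esrrb holds the CACCC box alone, and the window of Klf4 holds none of the 4 motifs. A match describes the letters and is not a site of binding.
Sox2 promoter (chr3:34649745-34649994, plus strand): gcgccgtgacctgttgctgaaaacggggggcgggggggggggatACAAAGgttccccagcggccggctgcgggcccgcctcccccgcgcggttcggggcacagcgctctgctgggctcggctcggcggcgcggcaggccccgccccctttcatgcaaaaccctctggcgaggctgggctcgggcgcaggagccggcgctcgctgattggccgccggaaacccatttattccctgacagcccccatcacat
Esrrb promoter (chr12:86360867-86361116, plus strand): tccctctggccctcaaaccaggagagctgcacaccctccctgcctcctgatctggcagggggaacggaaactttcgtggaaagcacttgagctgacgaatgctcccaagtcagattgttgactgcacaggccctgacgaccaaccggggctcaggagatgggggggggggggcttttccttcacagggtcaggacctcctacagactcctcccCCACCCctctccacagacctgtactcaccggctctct
Klf4 promoter (chr4:55532476-55532725, minus strand): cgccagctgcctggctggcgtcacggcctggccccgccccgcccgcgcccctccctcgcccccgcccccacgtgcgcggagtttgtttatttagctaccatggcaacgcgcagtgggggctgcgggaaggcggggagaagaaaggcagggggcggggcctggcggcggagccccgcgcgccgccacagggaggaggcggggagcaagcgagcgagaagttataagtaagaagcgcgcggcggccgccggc

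Pull-downs were compared with Input to ask which RNAs come along with Lhx1os, here whether any of these genes was recovered above Input or above the control probes. None was called. Only Sox2, Esrrb, Klf4 and Lin28a passed the filter on low counts, which asks for enough counts in at least 2 libraries, and the other 6 could not be tested. With the quasi-likelihood test of edgeR and p-values adjusted by Benjamini-Hochberg over 16524 genes, 0 of these 4 passed an adjusted p of 0.05 in LacZ, ODD or EVEN against Input. Of all genes tested, 7.41% passed in LacZ (6.98% higher and 0.43% lower), 6.84% in ODD (6.46% and 0.375%) and 5.66% in EVEN (5.37% and 0.284%). In this fit, with group as the only term, none of the 4 had an unadjusted p under 0.05, and the Wald test of DESeq2 also called 0. Recovery of Lhx1os itself is not reported here, and edgeR called 0 of 16524 genes in ODD or EVEN against LacZ. The comparison of probes was thus not shown to detect a captured RNA. The lack of calls therefore cannot decide whether RNAs of these genes come along with Lhx1os.

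Sox2 was slightly lower in every pull-down than in the Input of its own experiment. In CPM, the count scaled to a common library total with TMM factors, Input was at 310 and 195 (replicates 1 and 2), LacZ at 261 and 148, ODD at 268 and 152, EVEN at 272 and 149. The pull-down libraries were thus at 0.755 to 0.878 times their own Input, whichever probes were used. The 3 ratios of each experiment share 1 Input library and are not independent. For the mean of the 3 kinds of pull-down against Input the log2 fold change was -0.28 (SE 0.36, adjusted p 0.708 by edgeR), where 10.2% of genes were called, 8.37% as higher and 1.79% as lower. With the replicate as a block, which removes the difference between the experiments, it was -0.30 (SE 0.09, adjusted p 0.0438), and 29.2% of all genes tested were called in that fit, 13.1% as lower. Of the 4 genes Sox2 alone was called there, and its ratio to Input was about as low with the LacZ probes as with the Lhx1os probes. With the block, LacZ, ODD and EVEN each against Input gave Sox2 an unadjusted p of 0.0221, 0.0386 and 0.0371 by edgeR. Adjusted, these were 0.0858, 0.127 and 0.119, so it was not called. Of all genes tested, 5513, 5525 and 5706 had an unadjusted p under 0.05 there.

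Sox2ot, the noncoding gene around Sox2 that was singled out after its values were seen, went the other way. Its CPM in replicates 1 and 2 was 69.1 and 48.5 for Input, 101 and 69.4 for LacZ, 93.7 and 60.1 for ODD, 101 and 56.0 for EVEN. All 6 pull-down libraries were above the Input of their own experiment, which was 1 library in each experiment. The log2 fold change of the mean of the pull-downs over Input was 0.45 (SE 0.31, adjusted p 0.449) in edgeR without the block and 0.43 (SE 0.10, adjusted p 0.0183) with it. With the block, LacZ alone against Input was called at 0.54 (adjusted p 0.0216, against 0.538 without it), and ODD (0.37, adjusted p 0.0752) and EVEN (0.38, adjusted p 0.0698) were not. The differences of ODD and EVEN from LacZ were not called either.

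Esrrb, Klf4 and Lin28a showed no common direction in the first experiment, while in the second each was below its Input in every pull-down. For Esrrb the CPM was 4.78 and 12.4 (Input), 5.16 and 11.2 (LacZ), 3.86 and 7.69 (ODD), 2.37 and 10.7 (EVEN), and each pull-down was 0.496 to 1.08 times its own Input. For Klf4 it was 2.68 and 6.58 (Input), 2.58 and 5.14 (LacZ), 2.74 and 5.29 (ODD), 3.13 and 4.85 (EVEN), or 0.738 to 1.17 times Input. For Lin28a it was 0.948 and 2.78 (Input), 1.68 and 2.61 (LacZ), 1.85 and 2.60 (ODD), 1.69 and 2.16 (EVEN). Lin28a was 1.77 to 1.95 times Input in the 3 pull-downs of the first experiment and 0.777 to 0.940 times Input in those of the second. The ratios of the first experiment all rest on 1 Input library with 23 counts of Lin28a. For the mean of the pull-downs over Input, the log2 fold change was -0.34 (SE 0.62) for Esrrb, -0.22 (SE 0.46) for Klf4 and 0.18 (SE 0.45) for Lin28a. Their adjusted p-values by edgeR were 0.804, 0.829 and 0.859. With the replicate as a block the values were -0.35 (SE 0.21), -0.18 (SE 0.18) and 0.25 (SE 0.28). Adjusted p-values by edgeR in that fit were 0.26, 0.51 and 0.54. In the fit without the block each sign turned when 1 Input library was left out. Such a fit sets the Input of 1 experiment against pull-downs of both. Leaving out Input replicate 2 gave 0.50 for Esrrb and 0.56 for Klf4. Leaving out Input replicate 1 gave -0.40 for Lin28a and 0.09 for Sox2. Within each experiment, every pull-down library had Sox2 at 0.755 to 0.878 times its own Input.

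**Figure D2:**
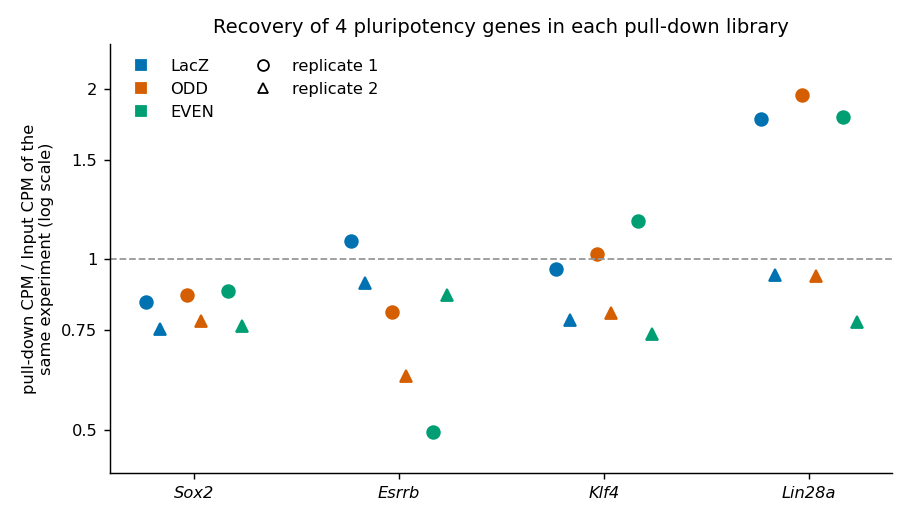
Ratio of the CPM in each pull-down library to that in the Input library of the same experiment (vertical axis, logarithmic) for the 4 genes tested, with colour for the probe set and shape for the replicate. The 6 points of Sox2 lie between 0.755 and 0.878, while those of Lin28a lie at 1.77 to 1.95 in replicate 1 and 0.777 to 0.940 in replicate 2.

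Of the genes too low to be tested, Zfp42 had 4 counts in the Input libraries and 0 among 65075163 in the pull-downs. The exact 95% interval of its pull-down to Input ratio, for counting error only, reached up to 1.05. For Nanog, with 12 counts in Input and 9 in the pull-downs, the ratio was 0.520 (0.194 to 1.35), and for Tdgf1, with 25 and 24, it was 0.666 (0.364 to 1.22). None of these intervals excludes equal recovery.

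Between the LacZ and the Lhx1os probes 0 of the 4 genes were called. The log2 fold change of the mean of ODD and EVEN over LacZ was 0.04 (SE 0.39) for Sox2, -0.43 (SE 0.68) for Esrrb, 0.03 (SE 0.51) for Klf4 and -0.07 (SE 0.49) for Lin28a. All had an adjusted p of 1.00 by edgeR, 0 of the 4 had an unadjusted p under 0.05, and DESeq2 called 0 of them. With the replicate block the values were 0.04 (SE 0.10), -0.46 (SE 0.25), 0.07 (SE 0.23) and -0.02 (SE 0.34), and again 0 were called. In edgeR 0% of all genes were called in ODD, EVEN or their mean against LacZ, so the lack of calls does not set these genes apart. Genes called in all by DESeq2 were 1 in ODD, 13 in EVEN and 2 in the mean, and those with an unadjusted p under 0.05 in edgeR were 170, 283 and 218.

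A probe against Lhx1os could bind another RNA where that RNA shares its sequence. The longest stretch that each gene's longest transcript shares with any of the 3 Lhx1os isoforms, on the same strand, was therefore found, in capitals with up to 6 bases on either side. Shown are the 4 genes tested and Zfp42, which has the longest stretch of the 10.
Sox2 (chr3:34651395-34651406, plus strand, 3' UTR): aactggAGAAGGGGAGAGattttc
Esrrb (chr12:86519167-86519176, plus strand, 3' UTR): gtcccaGAAGAAGGGGtcttct
Klf4 (chr4:55528180-55528189, minus strand, coding sequence): agtgccAGAAGTGTGAcagggc
Lin28a (chr4:134004926-134004935, minus strand, 3' UTR): agagagAGTGTGTATGtatgtg
Zfp42 (chr8:43302894-43302909, minus strand, 5' UTR): agatctTACCTGCCTCTGCCTCctgagt
Sox2 shared 12 bases, and Esrrb, Klf4 and Lin28a 10 bases each, where the median of 16507 genes tested was 11. A stretch as long as that of Sox2 was found in 22.1% of genes with a transcript within 25% of its length. Zfp42 shared 16 bases, as 2.57% of genes of similar length did, and had 0 counts in all 4 libraries captured with Lhx1os probes. Stretches of 20 bases or more, the length of a probe, were found in 1.51% of genes and in none of the 10.

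The larger difference lay between the 2 experiments. Esrrb and Klf4 were higher in the second experiment, Sox2 was lower, and Tdgf1 was found almost only in the second. In the fit with terms for group and replicate, edgeR called 2 of the 4 genes tested as higher in experiment 2 and 1 as lower, beside 15% of all genes called as higher and 12.4% as lower. Since 27.4% of all genes were called in one direction or the other, a call by itself sets no gene apart. Libraries of one experiment may share a culture, which the labels do not say, so these p-values measure the spread between libraries and not between cultures.

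Esrrb rose 2.63-fold, by 1.40 on the log2 scale (SE 0.20, adjusted p 0.00276 by edgeR). Its 4 libraries of the first experiment were at 2.37 to 5.16 CPM and those of the second at 7.69 to 12.4, without overlap. Klf4 rose by 0.99 (SE 0.17, adjusted p 0.00623), or 1.99-fold, from 2.58 to 3.13 CPM in the first experiment to 4.85 to 6.58 in the second. Sox2 fell by 0.79 on the log2 scale (SE 0.08, adjusted p 0.000711), which is 1.73-fold, from 261 to 310 CPM in the first experiment to 148 to 195 in the second. In each of the 3 genes every library of one experiment lay beyond every library of the other, and all 4 groups moved the same way.

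Lin28a was at 0.948 to 1.85 CPM in the first experiment and 2.16 to 2.78 in the second, also without overlap, but did not pass (log2 fold change 0.80, SE 0.26, adjusted p 0.0580 by edgeR). Its value rested on Input, where it was 2.93 times higher in the second experiment, against 1.28 to 1.56 times in the pull-downs, and without the Input libraries the log2 fold change was 0.47 (adjusted p 0.163). For Esrrb, Klf4 and Sox2 the fit on the pull-downs alone gave 1.39, 0.83 and -0.85. A test of whether the difference between experiments was the same in Input and in the pull-downs called 0 of the 4 genes by edgeR, where 4.99% of all genes were called. The smallest p was that of Lin28a, at -1.06 (SE 0.44, p 0.0477, adjusted p 0.218).

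Tdgf1 gave 5 reads in the first experiment and 44 in the second, over totals of 56730755 and 53488344. The ratio of the rates was 9.33, with an exact 95% interval from 3.71 to 30.2 for counting error alone. It was too low for the filter. In edgeR without that filter it was called, 3.11 higher on the log2 scale (SE 0.62, adjusted p 0.00199). Nanog went the other way with 16 and 5 counts, a ratio of 0.331 (0.0950 to 0.947), and was not called in that fit (adjusted p 0.348). The 10 counts of Input replicate 1 make up most of its first experiment.

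**Figure D3:**
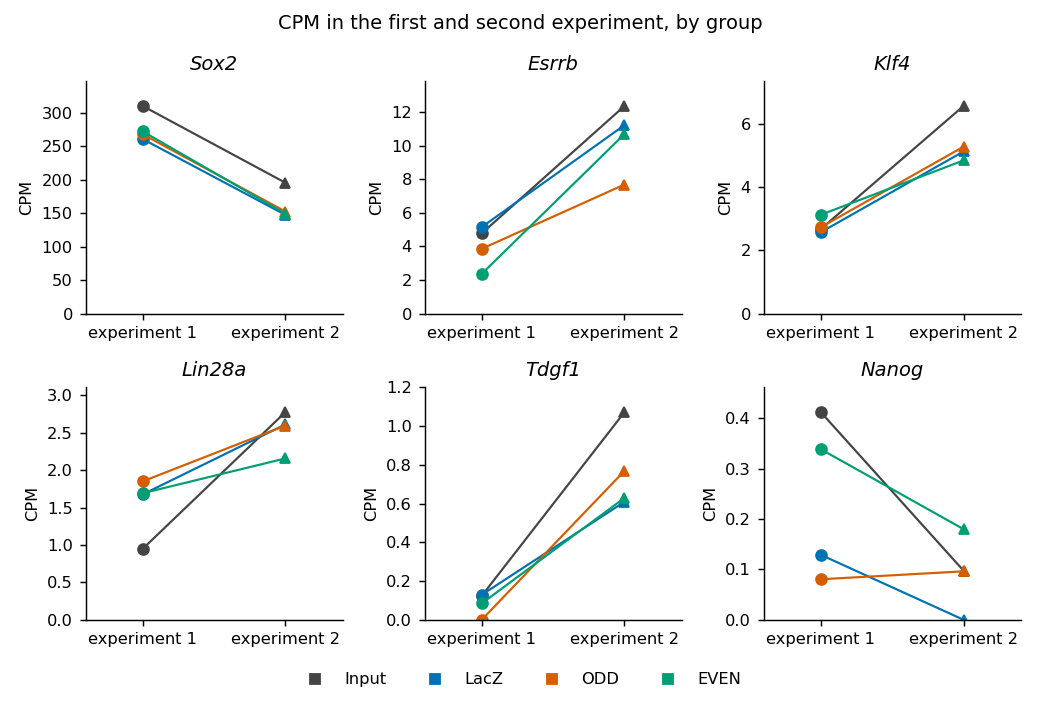
CPM (vertical axes, from 0) of 6 of the genes in the first and the second experiment, with a line joining the 2 libraries of each group. Sox2 falls in all 4 groups, Esrrb, Klf4, Lin28a and Tdgf1 rise in all 4, and Nanog, at 10 counts or fewer in each library, falls in 3 groups.

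Across the 8 libraries Sox2 ran opposite to the other 3 genes tested. Pearson's r of log2(CPM + 0.5) was -0.80 with Esrrb, -0.84 with Klf4 and -0.82 with Lin28a, and it was 0.83 between Esrrb and Klf4. These describe 8 libraries of 2 experiments that may share cultures, and carry no test. The genes most like Sox2 by this measure were Nbl1, a secreted BMP antagonist (r = 0.998), Acot1, an acyl-CoA thioesterase (r = 0.998), and Aldoc, an aldolase of glia and progenitors (r = 0.997). Those most like Esrrb were Frmd3 (0.990), Pak7 (0.980) and Sprn (0.977), while those most like Klf4 were Jhy (0.995), Ppp2r2b (0.995) and Upp1 (0.992). Lin28a had too few counts for this comparison.

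Lists of marker genes show what else differed between the experiments. Of 12 neural progenitor genes, 8 were lower in the second experiment and 0 higher, with a median log2 fold change of -0.67 against 0.01 over all genes tested. Among these 8, the largest changes were those of Hes5, a Notch target (-1.82, adjusted p 0.000428 by edgeR), Olig2, the factor of motor neuron progenitors (-1.39, adjusted p 7.81e-05), Sox9 (-1.07) and Pax6 (-0.98). Nes and Vim, intermediate filaments of progenitors, were at -0.01 and -0.07 and did not pass. Of 13 motor neuron genes, 8 were higher and 0 lower, with a median of 0.64. The list of called genes began with Slc5a7, the choline transporter (1.78, adjusted p 7.33e-05), Chat, which makes acetylcholine (1.53, adjusted p 7.33e-05), Isl2 (1.29) and the neurofilament Nefl (1.19). Among the motor neuron genes that did not pass were Mnx1 (0.06), Lhx3 (0.22) and Map2 (-0.02). Summed over the list, neural progenitor genes were at 1404 to 1730 FPKM in the libraries of the first experiment and 1020 to 1140 in the second, and motor neuron genes at 634 to 813 and 1018 to 1225.

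Calls among other genes of the pluripotency network were mostly upward. Of the 7 naive genes tested, 3 were higher in the second experiment and 0 lower: Klf5 at 1.88 (SE 0.14, adjusted p 0.000207 by edgeR), Sall4 at 0.87 (SE 0.26, adjusted p 0.0423) and Tbx3 at 0.57 (SE 0.17, adjusted p 0.0432). Klf5 was read 214 and 772 times in Input, LacZ held 43 and 257, ODD 97 and 217, EVEN 65 and 246, and of the 3 called genes it had the highest level in Input. Tet2 (-0.04) and Mybl2 (0.09) did not pass. Of 6 primed and exit genes tested, Pou3f1 (0.71, adjusted p 0.00662) and Lin28b, the paralog of Lin28a (0.49, adjusted p 0.0145), were higher and 0 lower. Among 11 partners with wide expression 1 was lower (Tet1 at -0.51) and 5 were higher, among them Cdh1, E-cadherin of epithelia and stem cells (1.82, adjusted p 0.000284), and Stat3, the effector of LIF (0.80, adjusted p 0.00187). In that list Alpl, tissue-nonspecific alkaline phosphatase, was the one gene called in the mean of the pull-downs against Input, at -1.11 (SE 0.26, adjusted p 0.0402).

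Markers of other cell types also differed. Both primitive endoderm genes tested of 6 were higher in the second experiment, Gata6 at 2.44 (SE 0.58, adjusted p 0.0198 by edgeR) and Dab2 at 1.06 (SE 0.10, adjusted p 0.000522). The list summed to 1.67 to 2.15 FPKM in the first experiment and 3.59 to 4.11 in the second. Most of this was Dab2, with 1.75 of 1.91 FPKM in Input replicate 1 and 3.66 of 4.11 in Input replicate 2. Sox17, Gata4, Sox7 and Amn had 2, 12, 28 and 36 counts over all libraries and were too low to be tested. Sox7 was lower in the second experiment in Input, with 8 and 4 counts. Of 8 fibroblast genes, which the feeder cells would carry, 2 were higher, Fn1 at 1.42 and Twist1 at 0.98, and 3 were lower, Lum at -1.68, Dcn at -1.01 and Pdgfrb at -0.81. They summed to 23.7 to 44.2 and 36.6 to 50.05 FPKM. Of 8 proliferation genes, Mki67 was higher (0.45, adjusted p 0.00886) and none lower, with a median of 0.07. The part of these cell types, and of the balance of progenitor and motor neuron genes, in the differences of Esrrb, Klf4 and Sox2 was not tested.

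**Figure D4:**
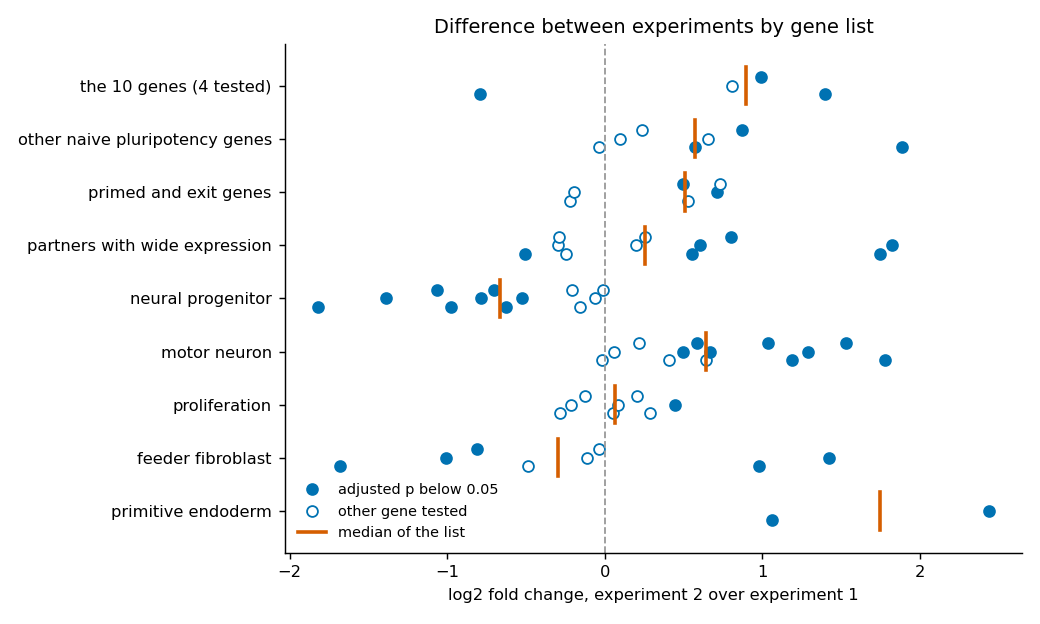
Log2 fold change of experiment 2 over experiment 1 (horizontal axis) for each gene tested in 9 lists (rows), filled where the adjusted p by edgeR is below 0.05, with the median of each list as a bar. Neural progenitor genes lie at or below 0, motor neuron genes mostly above it, and Sox2 is the point at -0.79 in the top row.

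Without the Input libraries, 9 of 12 neural progenitor genes were lower, 8 of 13 motor neuron genes were higher, and 2 of the 4 pluripotency genes tested were higher and 1 lower, where 19% of all genes were called as higher and 21.6% as lower. Of the other lists, naive genes had 2 of 7 higher in place of 3, primed and exit genes 3 of 6 in place of 2, and the partners with wide expression 7 of 11 in place of 5, with 1 lower as before. Proliferation genes had 3 of 8 higher and 2 lower, in place of 1 and 0. Fibroblast genes again had 2 higher and 3 lower, and both primitive endoderm genes tested were higher.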

How the data were processed

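Total RNA was depleted of ribosomal RNA and made into 8 stranded libraries, as the labels' protocols state. What the authors deposited are counts of reads for each Ensembl gene, in whole numbers, and FPKM values. The programs cutadapt 3.2, Bowtie2 2.4.2, Picard, HTSeq 0.13.5 and the build GRCm38 are named in the submitters' processing notes, with no role given. How strand and reads with several matches were treated was not given in the sources used here. Each deposited FPKM equalled count over gene length over column total, with a largest relative difference of 6.66e-14. Gene positions come from GENCODE M21, in which 99.1% of shared genes had the deposited length.

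Counts were tested with edgeR 4.0.16 (quasi-likelihood, TMM, default filter by group, 16524 genes, Benjamini-Hochberg, two-sided, threshold 0.05) on all libraries with group as the term. Experiments were compared with group and replicate as terms. The SE is the log2 fold change over the square root of F. Replicate numbers are labelled as batches, and deviations of same-numbered libraries correlated with r from 0.517 to 0.719, so the blocked fit is given where it changes a call. Replicates differed beyond sampling noise (chi-square per degree of freedom 34.5 to 67.4). Alternatives were DESeq2 1.42.0, RLE factors, no filter on low counts, the block, pull-downs alone and leaving out each library. The test for an unequal experiment difference in Input was chosen after seeing the data.

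The 10 genes and the lists were chosen with earlier results of these data known. Named from each list were the 3 highest in Input by FPKM and up to 4 called genes per comparison by size of change, and for patterns the 3 nearest genes of members averaging at least 50 counts. Changes of Mnx1, Lhx3 and Map2 were given outside this rule. A gene that this rule names is not reported here.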

Additional observations from a re-analysis of the deposited data

How the results depend on the processing

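The direction and the call of Sox2, Esrrb and Klf4 between experiments held under DESeq2, RLE factors, no filter, the pull-downs alone and leaving out each library. Leaving out 1 library gave log2 fold changes of -0.83 to -0.77 for Sox2, 1.18 to 1.52 for Esrrb, 0.85 to 1.11 for Klf4 and 0.48 to 0.95 for Lin28a, and 3 genes were called each time. Without the filter 5 of the 8 genes with a count were called by edgeR, Lin28a (0.80, adjusted p 0.0383) and Tdgf1 in addition. In that fit 4810 of all 28192 genes were called. All genes called between experiments were 4531, and 2171 to 6668 with a library left out.

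With the replicate block, 1 of the 4 genes was called in the mean of the pull-downs against Input, Sox2 at -0.30, and the block changed no other call of these genes. Against Input, LacZ, ODD, EVEN and the mean of the pull-downs had 1224, 1130, 935 and 1679 genes called, and with the block 3249, 3169, 3182 and 4819. Without the filter these were 2118, 2064, 1860 and 2898, and DESeq2 gave 1452 in EVEN. With a library left out they were 217 to 998, 108 to 900, 0 to 737 and 283 to 1290, each lowest without Input replicate 1. Against LacZ, where 0 genes were called in ODD, EVEN and their mean, no filter gave 75, 72 and 81, DESeq2 gave 1, 13 and 2, and leaving out a library gave 0 to 7, 0 to 5 and 0. Sox2 without Input replicate 1 was 0.0901. Signs of uncalled genes turned with the library left out, in fits with group as the only term. There, leaving out a library makes the 2 experiments unequal between the groups. Over Input the range was -0.57 to 0.09 for Sox2, -0.87 to 0.50 for Esrrb, -0.73 to 0.56 for Klf4 and -0.40 to 1.14 for Lin28a. Over LacZ it was -0.31 to 0.51, -1.16 to 0.25, -0.36 to 0.63 and -0.34 to 0.30. The part of this inequality in the turned signs was not tested. CPM scaled by the total count left each gene's Input values within 1 SD of those by TMM. With TMM factors of 0.9863 and 1.002 in Input replicates 1 and 2, this could hardly come out otherwise. A group left with 1 library was assumed to vary like the others. Depth limits statements on the 6 genes of few counts.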
